A study of Mus musculus with 24 samples.

Results

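MLO-Y4 cells, an osteocyte-like line from mice of mixed strain (C57B1/6, BALB/c and DBA2), were profiled on 24 Affymetrix arrays. These grouped by pairs of neighbouring columns that recur every 8 columns of the deposited table. This comparison sets arrays 3, 4, 11, 12, 19 and 20 in deposited order (sets 3 and 4) against arrays 1, 2, 9, 10, 17 and 18 (sets 1 and 2), that is 6 of the 24 arrays against 6 others. A set is the column position counted modulo 8, so each set holds 3 arrays, and a round is one run of 8 columns, so the 3 rounds each hold 1 array of every set. The sets were chosen by a repeat noticed in the correlations between these same log2 values, and the differences below are therefore descriptions of the arrays, without a test of their cause.

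In the study, cells on collagen-coated glass slides received 2 h of oscillating fluid flow (peak shear stress 10 dyn/cm2, 1 Hz) or were kept as sham controls in still chambers, and total RNA was taken 0, 2, 8 or 24 h later, with 3 arrays per label. GEO's labels cut across the sets. Sets 3 and 4 hold 1 array labelled sham 0 h, 1 labelled flow 0 h, 2 labelled flow 2 h and 2 labelled sham 24 h, whereas sets 1 and 2 hold 2 arrays labelled sham 0 h, 1 labelled sham 2 h, 1 labelled flow 2 h and 2 labelled flow 8 h. Both sides thus mix flow and sham as well as times, and what the sets stand for was not given in the sources used here, so no difference below is ascribed to flow or to time. The study's methods describe flowed and static cells collected in triplicate, but not whether the 3 came from separate cultures, so the spread between arrays may in part be technical. MLO-Y4 is a single immortalized line grown in culture, which limits it as a model of osteocytes embedded in bone.

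The values were RMA-normalized log2 intensities for 22690 probe sets, of which 20380 carried 1 gene symbol and gave 12393 genes, each read from its brightest probe set. Array medians ran between 6.71 and 6.80. For every one of the 24 arrays the most correlated other array lay in the same pair of sets (1 and 2, 3 and 4, 5 and 6, or 7 and 8). It lay in the same set for 2 of 24 and carried the same label for 16 of 24. Among the 12 arrays compared here, the nearest array was on the same side for 12, in the same set for 2 and under the same label for 7. The sets were chosen from these correlations, and a pair of sets holds more arrays than a label. These counts are thus descriptions and no independent support. The osteocyte-associated genes Pdpn, Gja1 and Phex were at a log2 level of at least 6 on all 12 arrays, whereas Dmp1, Sost, Mepe and Fgf23, which define mature osteocytes, were below 6 on all 12. Of the markers of other cells, all 3 of neurons were below 6 on all 12 arrays, while at least 6 was reached on some arrays by 1 of 4 of endothelium (Kdr), 2 of 6 of macrophages and osteoclasts (Csf1r, and Ctsk at 11.3 to 11.7), 2 of 4 of muscle (Ckm and Des), 2 of 3 of adipocytes (Fabp4 and Pparg) and 1 of 3 of osteoblasts (Col1a1). Adgre1, Ptprc, Pecam1, Cdh5, Myod1 and Adipoq were below 6 on all 12.

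The gene groups described below have the following known roles. Prostaglandin E2 is made from arachidonic acid by cyclooxygenase-2 (Ptgs2) and prostaglandin E synthase (Ptges), leaves the cell and acts through receptors such as Ptger4, and osteocytes release it when stretched or sheared. Immediate early genes such as Fos, Egr1 and Klf2 are transcribed within minutes of a stimulus without new protein synthesis, and their transcripts are short lived. The integrated stress response, which reacts to lack of amino acids and to misfolded protein, acts through the transcription factor Atf4 on genes such as Atf3, Chac1, Trib3 and Sesn2.

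Between sets 3 and 4 and sets 1 and 2, limma called 140 genes higher (1.13% of 12393) and 236 lower (1.9%) at a Benjamini-Hochberg adjusted p under 0.05, 376 (3.03%) in all. Of the calls, 37.2% were higher, against 56.0% when each array was first centred on its median. The 6 arrays of one side lay wholly above the 6 of the other for 75 genes higher (0.605%) and 114 lower (0.92%), 189 (1.53%) together. The differences were mostly modest, with a median size of 0.29 on the log2 scale among called genes. At least 1.5-fold differences were found for 10 genes called higher and 16 called lower, and at least 2-fold for Pdk4 alone on the higher side and for Rgs2 and Ddit4 on the lower. In the fit of only the 12 arrays of sets 1 to 4 the calls numbered 9 higher and 40 lower, and all 49 were among the 376. The median SD within a set was 0.090 to 0.107 in sets 1 to 4 and 0.079 to 0.084 in sets 5 to 8, which share in the estimate of the spread.

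Of the 376 called genes, 371 differed in the same direction in all 3 rounds, as did 30.5% of all genes, and all 376 did so in both the difference of set 3 from set 1 and that of set 4 from set 2. A pair of labels occurred on both sides, which allowed a comparison within a label, though over unequal sets. For sham 0 h it was set 3 against sets 1 and 2, and for flow 2 h sets 3 and 4 against set 2. Among arrays labelled sham 0 h, 367 of the called genes kept their direction (71.2% of all genes did), and among arrays labelled flow 2 h, 364 did (64.8% of all genes). These counts use the arrays that made the calls and are no independent support. For the difference between the set differences (set 4 minus set 2, less set 3 minus set 1) limma called 0 of 12393 genes (0.0%), with 154 higher and 426 lower at an unadjusted p under 0.05.

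Among genes higher in sets 3 and 4, the largest difference was that of Pdk4, the kinase that inactivates pyruvate dehydrogenase and so spares glucose. Its log2 level was 4.76 to 6.09 (median 5.66) in sets 3 and 4 and 4.05 to 4.70 (median 4.45) in sets 1 and 2. That is a difference of 1.16 ± 0.17 or 2.23-fold. Here and below, ± gives the SE of the limma fit to all 24 arrays. That SE takes its spread from sets 5 to 8 as well, so it is not the SE of 6 arrays against 6. The SD of Pdk4 was 0.49 within sets 3 and 4 and 0.28 within sets 1 and 2. The sides did not overlap, but Pdk4 was weak, below 6 on 21 of the 24 arrays. It was sets 1 and 2 that stood apart, since sets 5 to 8 lay at 5.52 to 6.19, above both of them. Glul, which makes glutamine from glutamate and ammonia, was 0.41 ± 0.09 higher without overlap, at 8.25 to 8.72 in sets 3 and 4 and 7.86 to 8.19 in sets 1 and 2.

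Ligands of the EGF receptor included a difference that recurred in all 3 rounds. Hbegf, the heparin-binding ligand, was at 9.21 to 9.88 (median 9.73) in sets 3 and 4 and 8.28 to 8.98 (median 8.78) in sets 1 and 2, without overlap and 0.88 ± 0.12 higher (1.84-fold). Its difference was 0.97, 0.84 and 0.84 in rounds 1, 2 and 3. Between the sets it was less even, at 1.19 for set 3 minus set 1 and 0.57 for set 4 minus set 2. Ereg, encoding epiregulin, was called at 0.33 ± 0.09 with overlapping sides, so 2 of 7 measured genes of this list, which holds 6 ligands and the receptor Egfr, were called higher (1.13% of all genes were), and only Hbegf in the fit of only the 12 arrays. Within the labels found on both sides, the Ereg difference was -0.21 (sham 0 h) and -0.19 (flow 2 h), against 1.05 and 0.81 for Hbegf. Those values compare unequal sets. With the sets balanced, Ereg was above 0 in every round (0.12, 0.29 and 0.58). It was also above 0 for set 3 minus set 1 (0.16) and set 4 minus set 2 (0.49). Errfi1, the feedback inhibitor of the receptor itself, was 0.47 ± 0.13 higher (12.42 to 12.74 in sets 3 and 4, 11.52 to 12.52 in sets 1 and 2). The Errfi1 difference was uneven, at 0.55, 0.02 and 0.84 in rounds 1, 2 and 3. It was 0.61 within sham 0 h and -0.09 within flow 2 h. All 6 arrays of sets 3 and 4 lay above those of sets 5 to 8 for Errfi1, which Hbegf did not show.

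Of 10 measured genes of the prostaglandin E pathway, 3 were called higher and none lower (against 1.13% and 1.9% of all genes), with a median difference of 0.06 over the 10. Ptger4, a receptor for prostaglandin E2 that raises cyclic AMP, was at 7.70 to 9.30 (median 7.87) in sets 3 and 4 and 6.87 to 7.69 (median 7.42) in sets 1 and 2, a difference of 0.88 ± 0.21 with no overlap. The highest Ptger4 levels, 9.30 and 8.77, were the 2 arrays of round 3, both labelled sham 24 h. Ptgs2 had 9.86, 10.69 and 10.92 in set 3 and 10.38, 11.30 and 11.38 in set 4 over rounds 1 to 3, against 10.06, 9.56 and 9.54 in set 1 and 10.63, 10.07 and 9.81 in set 2. Ptgs2 was thus 0.81 ± 0.18 higher on average, but the sides overlapped and its difference in round 1 was -0.22, against 1.18 in round 2 and 1.47 in round 3. Ptges differed by 0.34, 0.23 and 0.31 in the 3 rounds, a difference of 0.30 ± 0.06 and much smaller than that of Ptgs2. In the fit of only the 12 arrays none of the 3 was called.

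**Figure D1:**
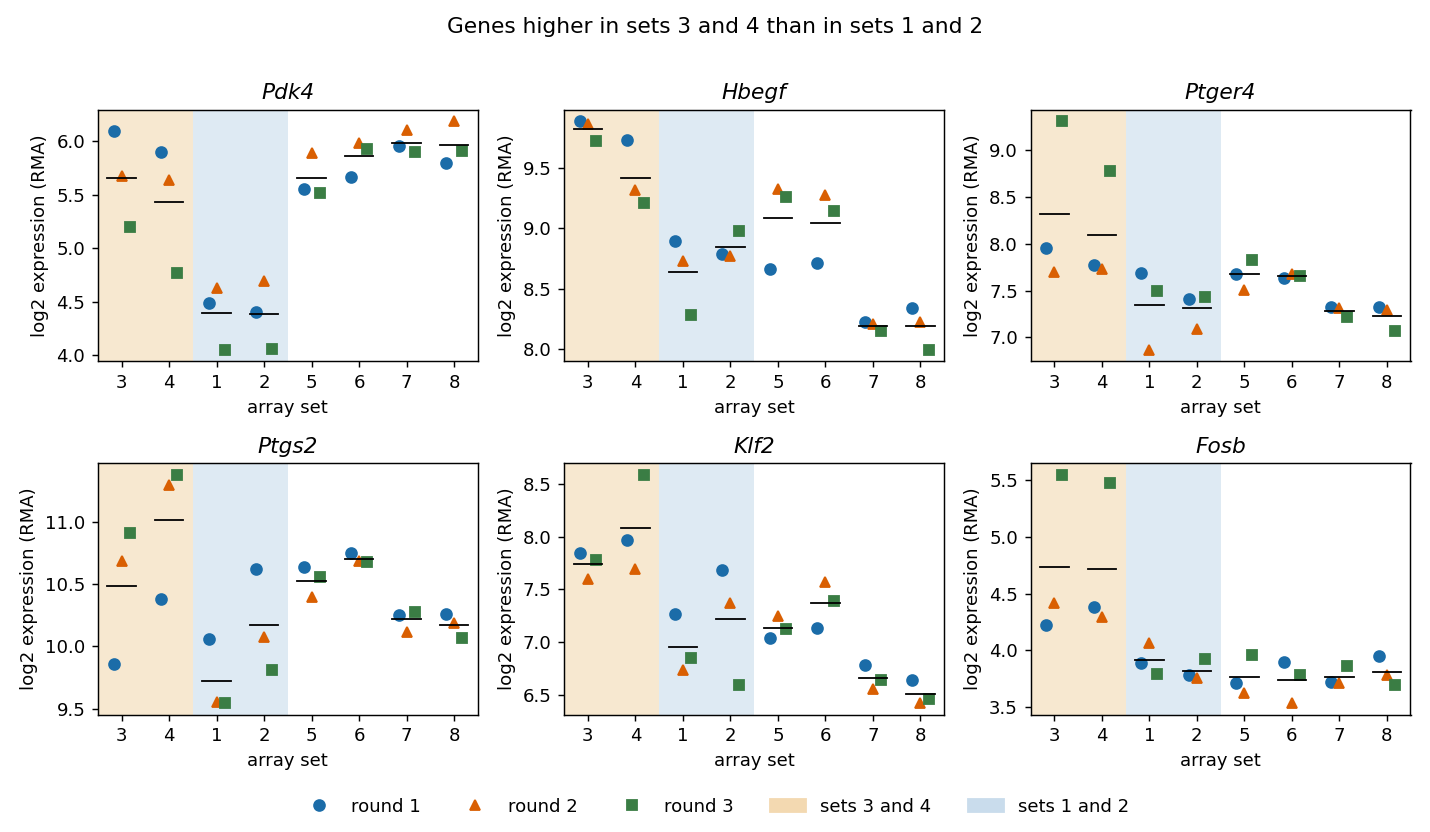
Log2 expression (y axis, RMA) of 6 genes called higher in sets 3 and 4, by array set (x axis), with 1 point per array, the symbol giving the round and the line the mean of 3 arrays. Hbegf separates the 6 arrays of sets 3 and 4 (9.21 to 9.88) from sets 1 and 2 (8.28 to 8.98) in every round, whereas Ptgs2 overlaps in round 1 and Fosb is highest on the 2 arrays of round 3.

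Transcription factors of the early response were less uniform. Klf2, a factor that endothelial cells express under shear, was at 7.60 to 8.59 (median 7.82) in sets 3 and 4 and 6.60 to 7.68 (median 7.06) in sets 1 and 2, 0.83 ± 0.15 higher with a small overlap. Klf5 was 0.53 ± 0.14 higher, and these were the 2 called of 9 Klf genes (1.13% of all genes were called higher). Of 11 AP-1 subunits, 10 had a difference above 0 (6924 of all 12393 genes did), and Fosb (0.85 ± 0.19) and Jun (0.46 ± 0.09) were called higher while Atf3 was called lower (1.13% and 1.9% of all genes). None of these Klf and AP-1 genes was called in the fit of only the 12 arrays. Fosb did not overlap between the sides, at 4.23 to 5.55 in sets 3 and 4 and 3.76 to 4.07 in sets 1 and 2, yet all 24 of its values were below 6. Rhob, an early-induced small GTPase that acts on the actin cytoskeleton, was 0.78 ± 0.13 higher, and Phlda1, an early gene of growth factor signalling, 0.61 ± 0.16 higher, both with overlap. Fosb, Klf2 and Rhob lay above every array of sets 5 to 8 on all 6 arrays of sets 3 and 4.

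Fos and Egr1, the best known early genes, were not called. Egr1 had 9.15, 8.70 and 12.55 in set 3 and 8.85, 9.34 and 12.37 in set 4 over rounds 1 to 3, against 8.92, 10.09 and 10.13 in set 1 and 8.87, 9.50 and 10.25 in set 2. Fos had 5.91, 6.02 and 9.86 in set 3 and 5.91, 6.10 and 9.33 in set 4, against 6.22, 6.70 and 7.12 in set 1 and 6.00, 6.89 and 8.01 in set 2. For both genes the 2 arrays of round 3 in sets 3 and 4, labelled sham 24 h, were the highest of the 12. The difference by round was 0.11, -0.77 and 2.27 for Egr1 and -0.20, -0.74 and 2.03 for Fos, so the mean differences of 0.54 ± 0.57 and 0.37 ± 0.58 were within their error. Without either of those 2 arrays the Egr1 difference was -0.07 (set 3) or -0.01 (set 4), and that of Fos was -0.28 or -0.19. Egr2 was above 0 in every round, at 0.20, 0.38 and 1.84, and was likewise not called (0.81 ± 0.41). It was weak, below 6 on 22 of the 24 arrays.

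Some chemokines were also uneven between rounds, in a different pattern. None of 13 measured C-X-C chemokines was called, where 3.03% of all genes were. Of the 13 differences 12 were above 0, as were 6924 of all 12393, and 6 of the 13 genes reached 6 on fewer than 3 arrays. Cxcl5, Cxcl1 and Cxcl2, which draw neutrophils, differed by 0.69 ± 0.27, 0.41 ± 0.26 and 0.40 ± 0.41. Their highest levels were in set 4 of rounds 2 and 3, where Cxcl2 reached 11.88 and 12.41, while Cxcl2 on the other 4 arrays of sets 3 and 4 was 8.40 to 9.76, and in sets 1 and 2 it was 8.17 to 10.99. In round 1 the difference was below 0 for all 3, at -0.07 for Cxcl5, -0.37 for Cxcl1 and -1.02 for Cxcl2. Zc3h12a, an RNase that degrades cytokine transcripts, had its highest levels on the same 2 arrays of set 4 (8.15 and 8.48) and was called at 0.75 ± 0.17. Ccl2 (0.02 ± 0.16), Tlr2 (0.06 ± 0.14) and Nos2 (0.07 ± 0.08), an attractant of monocytes, a receptor for bacterial lipoproteins and the inducible nitric oxide synthase, had differences no larger than their SE. All 24 values of Nos2 were below 6.

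**Figure D2:**
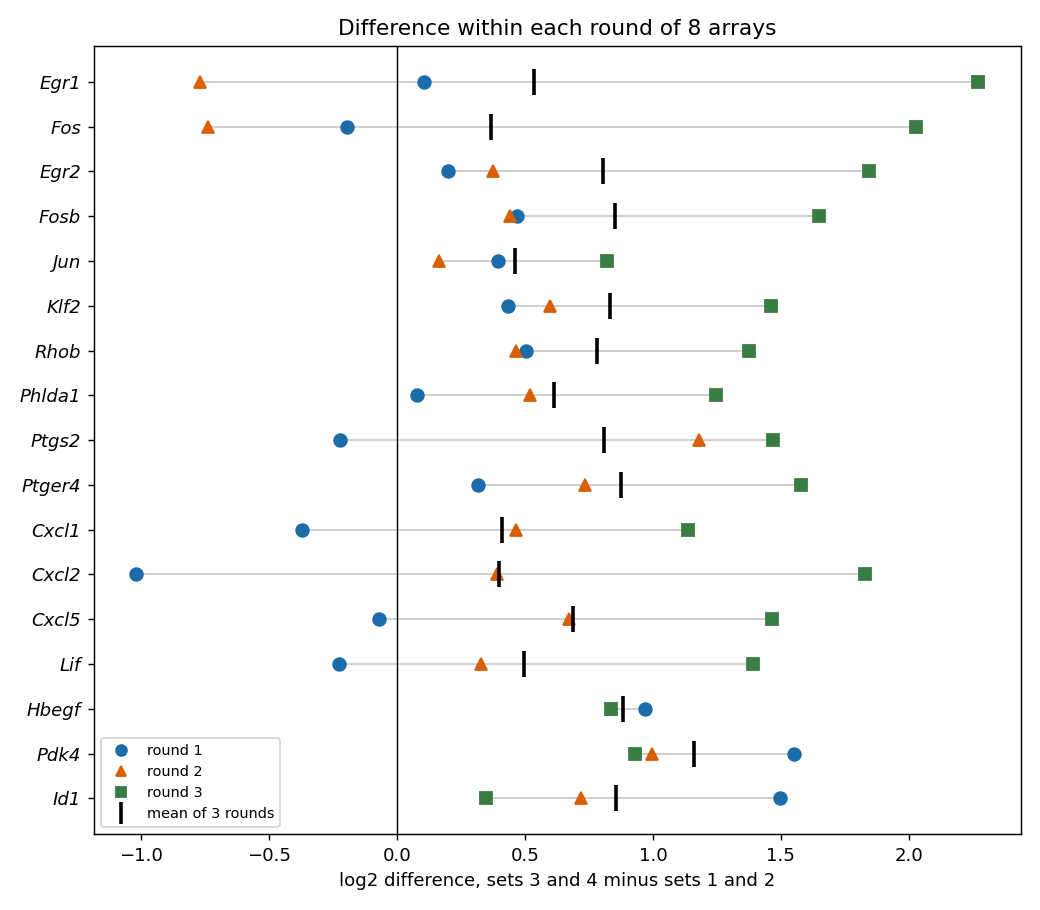
Difference of sets 3 and 4 minus sets 1 and 2 on the log2 scale (x axis) for 17 genes (y axis) within each of the 3 rounds, with the bar giving their mean. Hbegf stays between 0.84 and 0.97, whereas Egr1 runs between -0.77 and 2.27 and Cxcl2 between -1.02 and 1.83.

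Genes lower in sets 3 and 4 were led by Rgs2, which shuts off signalling by Gq-coupled receptors. Rgs2 was at 6.72 to 8.49 (median 8.05) in sets 3 and 4 and 8.75 to 10.12 (median 9.53) in sets 1 and 2, a difference of -1.58 ± 0.25, so that it was 2.99-fold lower without overlap. Its difference was -1.07, -1.58 and -2.09 in rounds 1, 2 and 3. Sets 1 and 2 were again the ones apart, since sets 5 to 8 were at 6.85 to 8.57. Ddit4 (also called REDD1), a stress-induced inhibitor of mTORC1, was at 9.14 to 10.11 (median 9.99) in sets 3 and 4 and 10.66 to 12.04 (median 11.03) in sets 1 and 2, a difference of -1.43 ± 0.21 with no overlap. Set 1 was the higher for Ddit4, at 11.68, 12.04 and 11.14, whereas set 2 had 10.80, 10.66 and 10.91.

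Of 25 measured genes of the endoplasmic reticulum stress and amino acid response, 5 were called lower (Atf3, Chac1, Sesn2, Trib3 and Slc3a2) and none higher, against 1.9% and 1.13% of all genes, while 16 of the 25 differences were below 0 and 9 above, with a median of -0.05. Atf3, a stress-induced transcription factor, was at 8.14 to 9.79 (median 9.23) in sets 3 and 4 and 9.90 to 10.20 (median 10.07) in sets 1 and 2, a difference of -0.98 ± 0.18 (1.97-fold lower). Chac1, which degrades glutathione, was at 9.56 to 10.36 in sets 3 and 4 and 10.37 to 11.04 in sets 1 and 2, a difference of -0.76 ± 0.14. Neither overlapped between the sides, though the highest Chac1 level of sets 3 and 4 came just under the lowest of sets 1 and 2. The pseudokinase Trib3 differed by -0.45 ± 0.11, the mTORC1 regulator Sesn2 by -0.46 ± 0.11 and the amino acid transporter subunit Slc3a2 by -0.25 ± 0.05.

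These 5 genes differed most in round 1 or 2 and least in round 3, or in round 2 for Atf3. For Trib3 the differences were -0.83, -0.39 and -0.14 and for Sesn2 -0.81, -0.55 and -0.03 in rounds 1, 2 and 3. Other members of the response did not follow them. Asns, asparagine synthetase and a standard readout of Atf4, differed by -0.02 ± 0.03, and Ddit3, the factor CHOP, by -0.41 ± 0.12 without being called. Slc38a2, a glutamine transporter outside the list, was called at -0.50 ± 0.08 without overlap. Leaving out 1 array at a time gave 3 to 6 members called lower, the fit of only the 12 arrays gave 0, and that fit with the round as a factor, added after the values were seen, gave 4.

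The start sites of 3 of these 5 genes, which were searched because they had been called, share a short match. RefSeq promoters of GRCm38.p6, 250 bases before to 50 after the start, were searched on both strands for the C/EBP-ATF response element TGATGNAA, a motif added after the values had been seen. The capitals mark the match, which lies on the opposite strand to the one printed.
Chac1 (chr2:119350992-119351291, plus strand): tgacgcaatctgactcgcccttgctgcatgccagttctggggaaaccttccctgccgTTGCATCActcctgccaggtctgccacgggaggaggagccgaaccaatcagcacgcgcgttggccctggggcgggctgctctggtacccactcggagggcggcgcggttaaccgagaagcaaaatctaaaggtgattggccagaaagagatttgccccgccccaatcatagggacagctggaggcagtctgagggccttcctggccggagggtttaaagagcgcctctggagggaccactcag
Atf3 (chr1:191183284-191183583, minus strand): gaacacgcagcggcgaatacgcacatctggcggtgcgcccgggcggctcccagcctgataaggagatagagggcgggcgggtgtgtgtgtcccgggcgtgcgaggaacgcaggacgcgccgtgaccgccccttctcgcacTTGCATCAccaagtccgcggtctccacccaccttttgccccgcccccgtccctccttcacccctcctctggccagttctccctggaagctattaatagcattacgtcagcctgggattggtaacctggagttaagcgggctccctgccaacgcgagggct
Trib3 (chr2:152344011-152344310, minus strand): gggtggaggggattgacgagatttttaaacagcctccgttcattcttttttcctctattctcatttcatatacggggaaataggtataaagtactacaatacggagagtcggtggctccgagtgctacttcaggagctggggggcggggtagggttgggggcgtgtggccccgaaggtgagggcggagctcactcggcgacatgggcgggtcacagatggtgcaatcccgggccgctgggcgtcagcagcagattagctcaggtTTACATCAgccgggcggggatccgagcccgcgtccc

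Counted from the start site, the first base of the match was at -193 for Chac1, -110 for Atf3 and 15 for Trib3. Sesn2 and Slc3a2 had none, and 3.97% of all 32851 promoters in the table held at least 1. The same 5 promoters had no match to the cyclic AMP element TGACGTCA (1.79% of all promoters), to the AP-1 site TGANTCA (7.81%), to the CArG box (1.63%) or to the NF-kB site (4.51%). Of the 20 leading genes, 16 were in the table with 19 promoters, and of these 4 motifs only the NF-kB site was found, in Sqstm1. The 20 members of the stress list that were not called were not counted separately, so the match cannot be tied to the differences. A match is a run of letters in this window and says nothing of what binds there.

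**Figure D3:**
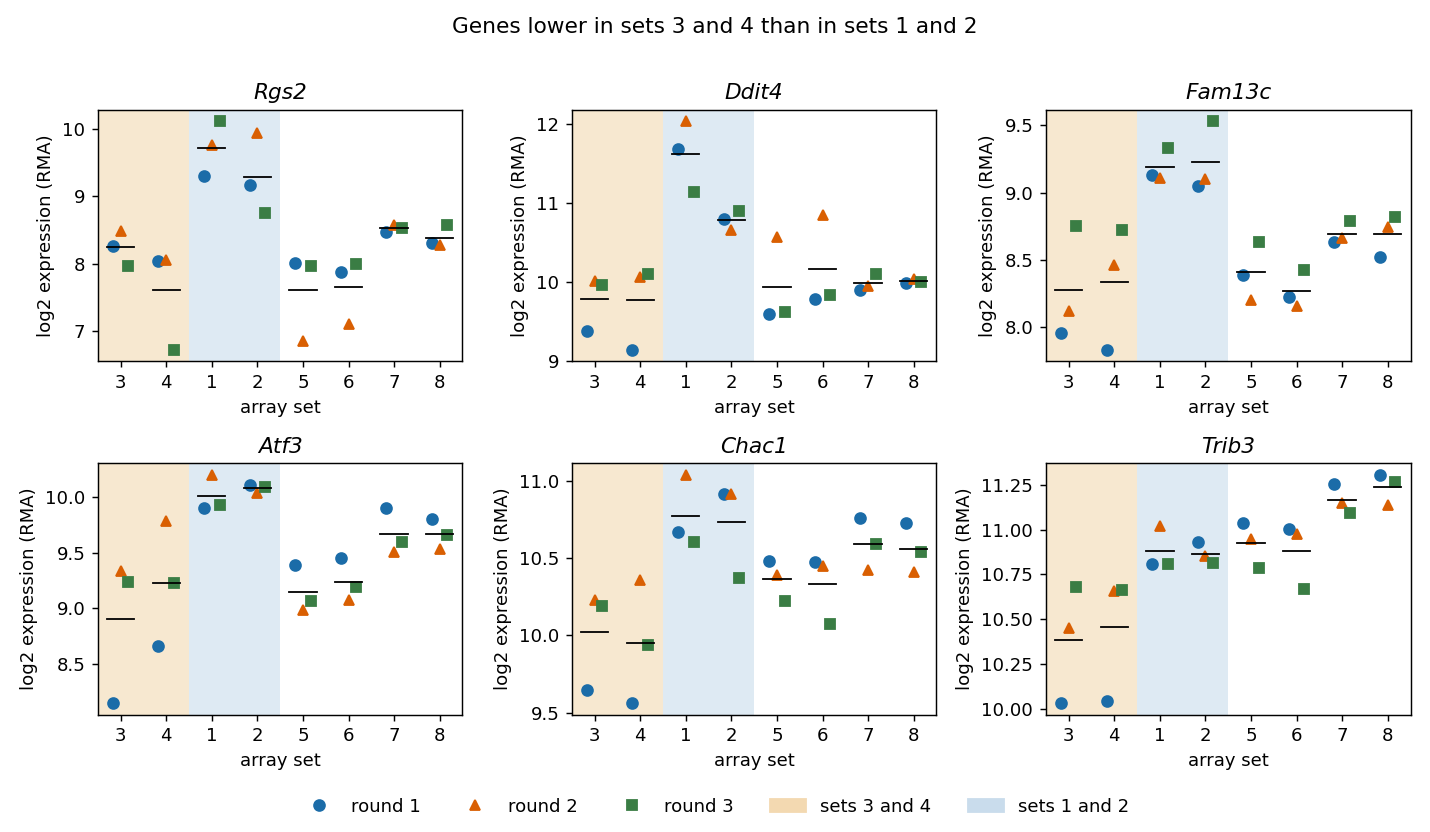
Log2 expression (y axis, RMA) of 6 genes called lower in sets 3 and 4, by array set (x axis), with 1 point per array, the symbol giving the round and the line the mean of 3 arrays. Rgs2 and Fam13c in sets 3 and 4 overlap the values of sets 5 to 8, and sets 1 and 2 are above both, whereas for Trib3 it is sets 3 and 4 that hold the lowest values.

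The other leading genes on the lower side were of mixed function. Fam13c and its relative Fam13b, of the same family, differed by -0.90 ± 0.14 and -0.67 ± 0.09, both without overlap. Fam13c was at 7.83 to 8.75 in sets 3 and 4 and 9.05 to 9.53 in sets 1 and 2, and Fam13b at 8.51 to 8.91 in sets 3 and 4 and 9.24 to 9.80 in sets 1 and 2. Phyhipl (-0.84 ± 0.12, below 6 on 19 of 24 arrays), Mab21l1 (-0.64 ± 0.08), Rassf5 (-0.59 ± 0.10), a Ras effector, and Gadd45a (-0.58 ± 0.13), which responds to DNA damage, completed the 10 largest. The other probe set of Phyhipl differed by only -0.10. Phyhipl reached 6 only in sets 1 and 2, with at most 5.78 in sets 3 and 4 and 5.92 in sets 5 to 8. It thus passed the filter on dim genes only through the side where it was high. For Rassf5 sets 3 and 4 stood apart, at 6.63 to 7.25, against 7.46 to 7.82 in sets 5 to 8. Rcan1, the inhibitor of calcineurin, differed by -0.83 ± 0.17 with overlap, by -1.28, -0.88 and -0.32 in the 3 rounds. Flcn, a regulator of mTORC1 at the lysosome, differed by -0.54 ± 0.09 and did not overlap.

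Where the 12 arrays of sets 5 to 8 lay also differed between genes. Of the 140 genes called higher, 43 had only sets 1 and 2 wholly apart from sets 5 to 8, 11 had only sets 3 and 4 apart, 13 had both and 73 neither. Of the 236 called lower the numbers were 64, 10, 2 and 160 in the same order. Over all 12393 genes, 691 had only sets 1 and 2 apart and 191 only sets 3 and 4, so sets 1 and 2 were more often the ones apart over all genes too. Rgs2, Atf3, Fam13c and Pdk4 were of the first kind, and Fosb, Klf2, Rhob, Errfi1 and Rassf5 of the second.

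A large family shifted in the lower direction. Genes named Zfp and a number, most of which encode zinc finger proteins and many of them DNA-binding repressors, were taken as a list after their values had been seen. Of 173 measured, 133 had a difference below 0, 38 (22.0%) were called lower and 2 higher, against 1.62% called lower among all other genes. Their median difference was -0.12, against 0.01 over all other genes, and it was -0.11, -0.09 and -0.12 in rounds 1, 2 and 3. The median deviation of these genes from their 24-array means was -0.12 to -0.002 on the 6 arrays of sets 3 and 4 and 0.02 to 0.07 on the 6 of sets 1 and 2, without overlap.

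Zfp24 gave the clearest separation, at 8.30 to 8.59 in sets 3 and 4 and 8.95 to 9.12 in sets 1 and 2, a difference of -0.57 ± 0.05. Zfp623 differed by -0.56 ± 0.09 and Zfp672 by -0.51 ± 0.06, in the same direction in all 3 rounds. Zfp52 ran the other way, with a median of 9.81 in sets 3 and 4 and 9.37 in sets 1 and 2, a difference of 0.46 ± 0.10. With each array centred on its median 36 of the family were called lower, with the 3′ minus 5′ values of the next paragraph as covariates 17, and in the fit of only the 12 arrays 4. In these 3 fits the family's median difference stayed between -0.13 and -0.10.

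RNA quality moved somewhat with the sides. The log2 difference between the 3′ and 5′ probe sets of Gapdh was -0.20 to -0.13 in sets 3 and 4 and -0.17 to -0.07 in sets 1 and 2, and that of beta-actin was 0.14 to 0.20 in sets 3 and 4 and 0.16 to 0.22 in sets 1 and 2. With both as covariates the calls numbered 15 higher and 71 lower, of which 78 were among the 376, and they included Pdk4, Hbegf, Klf2, Jun, Rhob, Rgs2, Ddit4, Atf3, Chac1 and Zfp24. Of the 61 called genes chosen for naming, 37 lost their call, among them Ptgs2, Ptger4, Ptges, Fosb, Klf5, Ereg, Errfi1, Fam13c, Trib3 and Sesn2. Their part in the remaining differences was not tested.

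**Figure D4:**
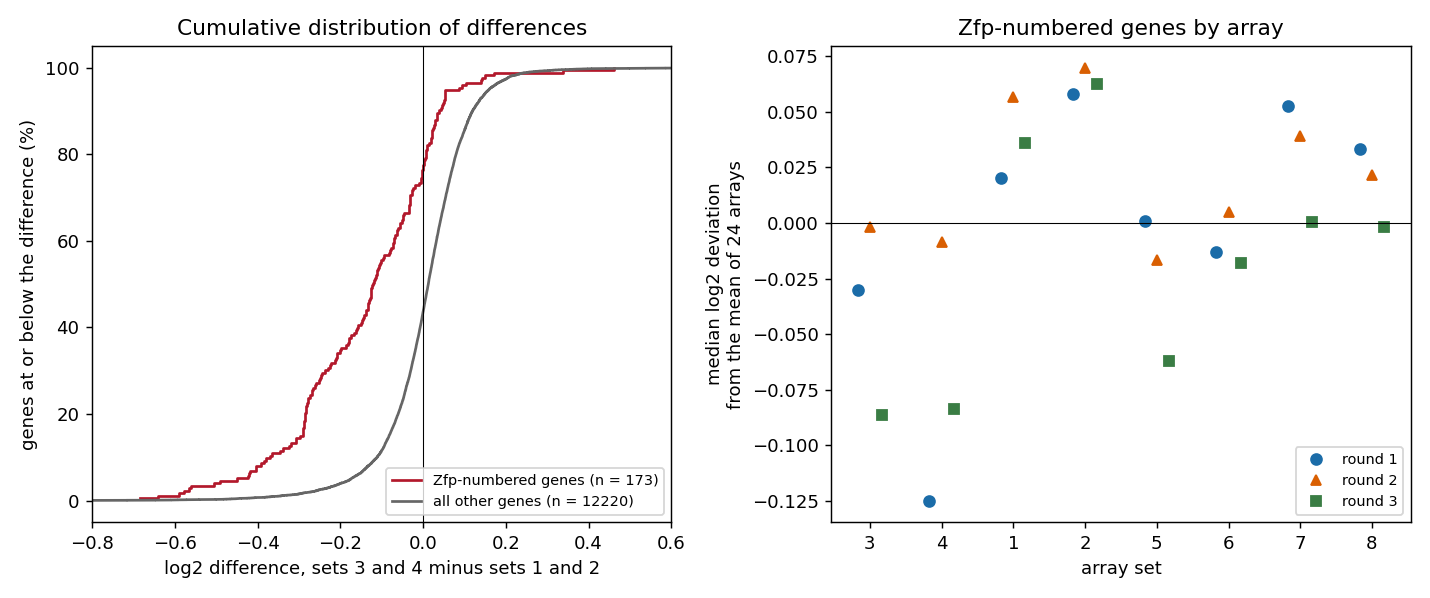
Left, the cumulative share of genes (y axis, %) at or below each log2 difference (x axis) for 173 Zfp-numbered genes and 12220 other genes. Right, the median log2 deviation of the Zfp-numbered genes from their 24-array means (y axis) by array set (x axis), 1 point per array, where all 6 arrays of sets 3 and 4 lie below 0 and all 6 of sets 1 and 2 above.

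Other lists showed small differences that ran one way with few calls. All 23 measured genes of G2 and mitosis had a difference above 0, with a median of 0.12, and Cdk1 (0.31 ± 0.07), the kinase that drives entry into mitosis, and Kif23 (0.33 ± 0.08), a motor of cell division, were called (1.13% of all genes were). Leaving out 1 array at a time gave 1 to 8 calls in this list, and the fit of only the 12 arrays and that with the 3′ minus 5′ covariates gave 0 each. For Cdk1 the rounds gave 0.56, 0.03 and 0.35, and the sides overlapped. All 17 genes of cholesterol and fatty acid synthesis had a difference below 0, with a median of -0.14 and none called, and the largest was that of Stard4, a carrier of cholesterol within cells, at -0.35 ± 0.12, with Hmgcs1, which makes HMG-CoA, at -0.33 ± 0.17. With the 3′ minus 5′ values as covariates, 13 of these 17 were below 0. Over all genes 6924 of 12393 differences were above 0, with a median of 0.01, and members of such lists vary together, so the counts are descriptions.

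Of 19 interferon response genes 17 had a difference below 0, and only 1 (5.3%) was called lower, against 1.9% of all genes. This was Irf1 (-0.60 ± 0.13), a transcription factor of that response, at 10.16 to 11.08 in sets 3 and 4 and 10.94 to 11.56 in sets 1 and 2. Irf9, a partner of the Stat factors, lay outside the list and was called at -0.32 ± 0.06 without overlap. Of 16 heat shock genes 13 were above 0, and Hsph1 (0.26 ± 0.07), Chordc1 (0.22 ± 0.05) and Dnaja1 (0.17 ± 0.04), a chaperone and cochaperones, were called higher (1.13% of all genes were). These heat shock calls numbered 0 to 4 when 1 array was left out, and 0 with only the 12 arrays or with the 3′ minus 5′ covariates. Dnajb4, another cochaperone and one of the 10 leading genes, differed by 0.36 ± 0.06 without overlap. Sqstm1, the autophagy receptor p62, was 0.35 ± 0.07 higher, at 12.78 to 13.14 in sets 3 and 4 and 12.40 to 12.75 in sets 1 and 2. Of 24 collagen and matrix genes 19 were below 0 (5469 of all 12393 were) and none was called (3.03% of all genes were). Nor was any of 22 genes of oxidative phosphorylation called, whose median was 0.03.

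**Figure D5:**
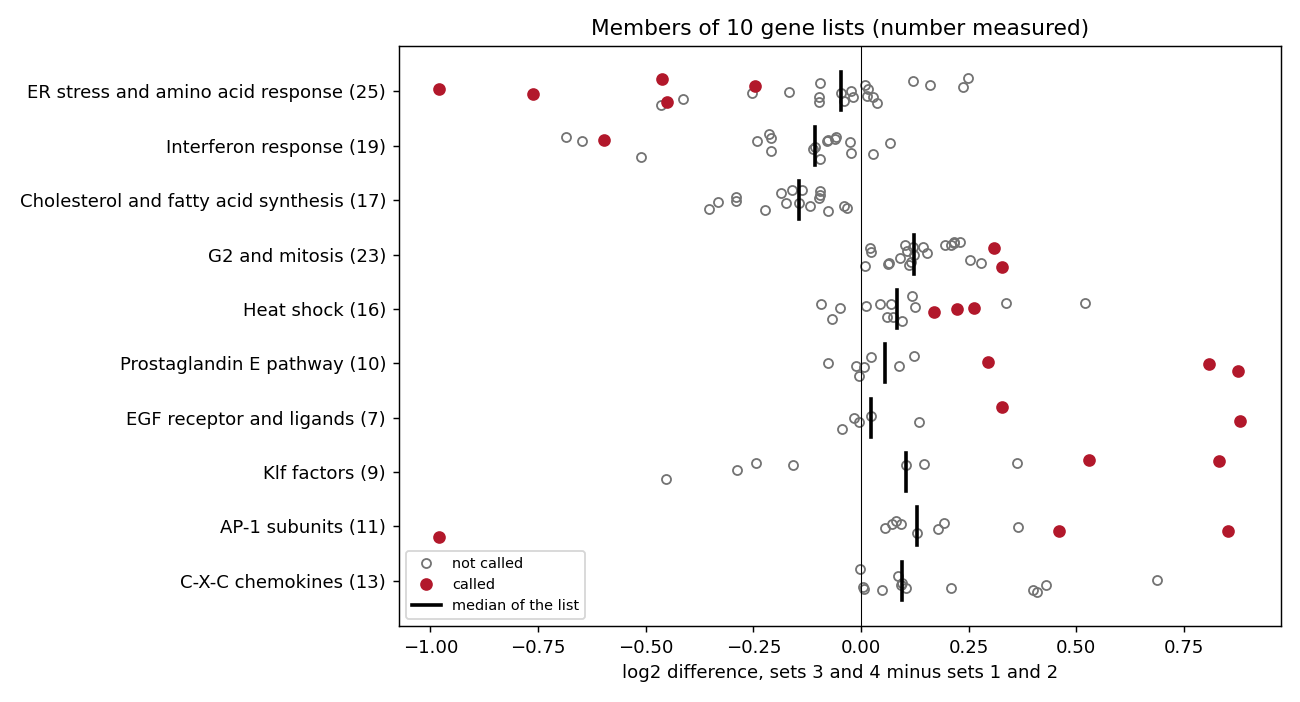
Difference of sets 3 and 4 minus sets 1 and 2 on the log2 scale (x axis) for each member of 10 gene lists (y axis, number measured in parentheses), 1 point per gene, filled where limma called it, with the bar at the median. All 23 genes of G2 and mitosis lie above 0 and all 17 of cholesterol and fatty acid synthesis below, while the called genes of the stress and prostaglandin lists lie far from their medians.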

How the data were processed

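Biotin-labelled cRNA from 24 MLO-Y4 samples was hybridized to Affymetrix arrays, 1 per sample, and the authors deposited RMA values, which are log2 intensities already background-corrected, quantile-normalized and summarized per probe set. The version of the RMA software was not given in the sources used here. RMA draws arrays to a common distribution, and small differences of low signals are compressed. Control probe sets (64) and those with no symbol (1555) or several (691) were left out, and the brightest probe set was kept for each of 12393 genes, of which 4956 had more than 1.

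Sets were assigned by column position. Using limma 3.58.1 (lmFit, then eBayes; R 4.3.3), 1 mean per set was estimated from the 24 arrays together, the contrast being the mean of the 2 set differences, and p-values were adjusted by Benjamini-Hochberg over all genes. A gene was "called" under 0.05, which describes its difference against the spread within sets. A gene is termed dim where its log2 value reached 6 on fewer than 3 arrays. The fit was tested on simulated data, where it called 98% of genes changed by 0.5, and 11 unchanged genes. These values hold for the simulated data only. The real arrays correlated within a round (median 0.20), and their spread differed between sets. The share of false or missed calls among the real arrays was therefore not measured. The members, lists and tests were chosen with earlier results of these data known.

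Genes named were the 10 largest non-overlapping calls in each direction that were not dim, up to 4 called members of each list (or its largest), genes the study discusses, and some chosen after their values were seen (Fos, Egr1, Rhob, Phlda1, Cxcl1, Cxcl2, Cxcl5, Id1, Zc3h12a, Rcan1, Flcn, Irf9, Trib3, Slc3a2, Slc38a2, Asns, Ddit3, Hmgcs1, Pim1 and the Zfp genes). Microarrays give no read depth, and 3 arrays per set limit the precision. Alternatives were other models, covariates, scalings, filters and leaving out each array.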

Additional observations from a re-analysis of the deposited data

Results flagged for a closer look

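In 202 groups of 6 values, those of 101 genes on either side, the highest or the lowest array stood far from the other 5 in 9 groups, and chance flags about 1 in 20 groups. In sets 3 and 4 these were Bhlhe40 (a high value of 9.67 in set 3, round 3), Cyp1b1 (8.02 in set 4, round 2), Dcn (8.10 in set 4, round 3), Fam13b (8.51 in set 4, round 1), Klf2 (a high 8.59 in set 4, round 3) and Rgs2 (6.72 in set 4, round 3). In sets 1 and 2 these were Fhl2 (a high 8.60 in set 2, round 3), Hbegf (a low 8.28 in set 1, round 3) and Pfkfb3 (a high 6.00 in set 2, round 3).

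For 4 of the 101 genes, every array of sets 3 and 4 lay above those of sets 1 and 2 in one round and below them in another. The share over all genes was not counted, and with so few arrays in a round such reversals can arise by chance. The differences were -0.77 in round 2 and 2.27 in round 3 for Egr1, and -0.20, -0.74 and 2.03 in rounds 1 to 3 for Fos. For Mmp13, a collagenase, they were -1.06, 0.53 and -0.79, and for Ptx3, a pentraxin, -0.54, 0.60 and -0.56. All 24 values of Ptx3 were below 6. The difference between rounds was not tested.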

How the results depend on the processing

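The 12 arrays of the comparison decide less than the 24. With only these 12, limma called 9 genes higher and 40 lower, as 6 arrays against 6 it called 15 and 53, with the 3′ and 5′ differences as covariates 15 and 71, at an adjusted p under 0.01 it called 26 and 87, and with a 1.5-fold minimum 10 and 16. With labelled treatment and time as covariates 313 genes were called higher, with each array centred on its median 254 (and 200 lower), and with the filter on dim genes 227. Leaving out 1 array at a time gave 67 to 400 higher, 146 to 297 lower and 0 to 1 for the difference between the set differences, with 87 to 150 higher and 123 to 177 lower genes without overlap, where fewer arrays overlap less easily. The 400 came without the array labelled flow 2 h replicate 1 (set 2, round 2), the 67 and 146 without flow 8 h replicate 3 (set 2, round 3). The cause was not tested.

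The label's replicate number did not pair the arrays: deviations of same-numbered arrays in different sets correlated between -0.33 and 0.27. With it as a replicate block the calls were 99 higher and 192 lower, and with the block and only the 12 arrays, added after the values were seen, 1 and 2. Arrays of the same round correlated at a median of 0.20. The round as a factor gave 209 and 312, and with only the 12 arrays, also added later, 66 and 164.

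Of the 61 called genes chosen for naming, 15 were still called with only the 12 arrays and 24 with the 3′ and 5′ covariates. The block and the 12 arrays kept 3, the mean of all probe sets 49, and leaving out 1 array 45 to 60. Fits that gave a value (3 genes had none under the filter on dim genes) reversed the direction of 0 of the 61. Uncalled genes did. Ccl2 was -0.14 with label covariates, -0.055 with array weights and -0.0626 to 0.151 without 1 array (below 0 without 5 of the 12). Tlr2 was -0.0879 with label covariates, -0.000221 with array weights and -0.0172 to 0.162 without 1 array. Without 1 array Egr1 ran from -0.0685 to 0.895 and Fos from -0.284 to 0.703, below 0 without set 3 or set 4 of round 3. With the 3′ and 5′ covariates Fhl2 was 0.0387, Ptx3 0.0373 and Traf1 -0.00215.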

Other observations

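Id1, a target of bone morphogenetic protein signalling, had one of the larger differences that was not called, 0.85 ± 0.25, by 1.5, 0.72 and 0.35 in rounds 1, 2 and 3. It was at 8.72 to 9.67 in sets 3 and 4 and 7.83 to 9.58 in sets 1 and 2, and 0 of the 13 measured genes of its list were called (3.03% of all genes were). Bhlhe40, a clock-linked repressor, differed by -0.79, -0.69 and -0.75 in the 3 rounds, yet by -1.15 between sets 3 and 1 and -0.34 between sets 4 and 2, and was not called. Mcl1, which protects from apoptosis, was called at -0.28 ± 0.06 and lay above all 12 arrays of sets 5 to 8 on both sides, at 11.55 to 11.84 in sets 3 and 4, 11.73 to 12.27 in sets 1 and 2 and 11.46 to 11.54 in sets 5 to 8. Mcl1 has 6 probe sets, and those other than the brightest differed by only -0.12 to -0.05. Of the 19 NRF2 and glutathione genes 17 had a difference above 0 (6924 of all 12393 did) and none was called (3.03% of all genes were).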
